A study of Mus musculus with 2 samples.

Results

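The genes described here are the MYC family members Myc, Mycn and Mycl, the transcription factor gene Myb, the D-type cyclin genes Ccnd1, Ccnd2 and Ccnd3, and the genes of their kinase partners, Cdk4 and Cdk6. They were taken as a named list of 9 genes out of 21853 protein-coding genes by name and not by a threshold on their peaks, with earlier results of these data known. Each gene was given its promoter peaks, centred within 1000 bp of 1 of its coding transcription start sites (TSSs), and its distal peaks, those farther out whose nearest coding TSS within 100 kb was its own. For Myc, every peak up to 1.8 Mb downstream of its first TSS was added. Together these made 343 of the 154812 peaks of replicate 1 and 312 of the 139702 peaks of replicate 2.

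The data were DNase-seq peak lists, which mark places where DNase I cuts readily because the chromatin is open, from thymus of newborn mice (postnatal day 0) of strain B6NCrl, pooled from males and females and labelled healthy. There was 1 group with 2 biological replicates, labelled as separate biosamples of a common donor entry, so the spread between them may be in part technical. With 1 group no condition could be compared and no test was possible. No read totals were at hand, so the depth behind each list is unknown. Peaks were 150 bp wide and carried a deposited score from 1 to 150, with a median of 46 in replicate 1 and 41 in replicate 2. The labels and headers do not define this score, so it served only for ranking peaks within a list: a rank of 90% means that 90% of the peaks of that list had a lower score. A shared peak is a replicate 1 peak that overlapped a replicate 2 peak by at least 1 bp.

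The D-type cyclins bind CDK4 and CDK6, and the active kinases phosphorylate the retinoblastoma protein so that E2F factors can switch on genes of DNA replication. MYC is a transcription factor that pairs with MAX on the letters CACGTG and drives growth and ribosome production, and MYB is a transcription factor needed for the expansion and differentiation of early thymocytes and other blood progenitors. In the thymus, cyclin D3 is known for the burst of division that follows the pre-T cell receptor signal, and enhancers far downstream of Myc, within and beyond the noncoding gene Pvt1, have been described in T cells and in blood progenitors.

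All 6 thymocyte markers looked up (Cd3e, Cd4, Cd8a, Lck, Rag1 and Ptcra) had a promoter peak in both replicates, and none of 4 markers of thymic epithelium (Foxn1, Krt5, Krt8 and Psmb11) or 3 of hepatocytes (Alb, Apoa1 and Ttr) did. Among markers of other cells, a shared promoter peak was found for 1 of 3 B cell genes (Pax5), 2 of 3 myeloid genes, 2 of 3 erythroid genes (not Hbb-bs), 1 of 3 endothelial genes and 3 of 3 mesenchymal genes. The lists come from whole tissue, in which a site open in few cells and a site weakly open in many cannot be told apart, and the part that other cell types have in the peaks of the 9 genes was not tested.

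The sequences of 7 peaks are shown first, because the account turns on them: the strongest distal shared peak at Myc, the strongest distal shared peak within Pvt1, the strongest beyond 1 Mb from Myc, the strongest within Ccnd3, a pair at Myb (downstream and upstream of the gene), and the promoter peak of Cdk4. They are GRCm38 (mm10) sequence, plus strand, 5′ to 3′. Capitals mark every match, on either strand, to the 13 sets of letters searched: TGTGGT for RUNX factors, AGGAAG for ETS factors, CAGCTG and CACCTG for E proteins (E-box), CACGTG for MYC (the MYC E-box), CTTTGA for TCF/LEF, GTGGGAA for RBPJ, AGATAA for GATA factors, TAACNG for MYB, the core motif of CTCF, TTTCCCGC and TTTGGCGC for E2F, TGANTCA for AP-1, TTCNNNGAA for STAT factors and CCAAT for the CCAAT box.
Myc upstream peak, chr15:61983436-61983585: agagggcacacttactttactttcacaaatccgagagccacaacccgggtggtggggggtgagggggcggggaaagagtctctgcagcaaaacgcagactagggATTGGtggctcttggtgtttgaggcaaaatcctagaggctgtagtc
Myc downstream peak in Pvt1, chr15:62169736-62169885: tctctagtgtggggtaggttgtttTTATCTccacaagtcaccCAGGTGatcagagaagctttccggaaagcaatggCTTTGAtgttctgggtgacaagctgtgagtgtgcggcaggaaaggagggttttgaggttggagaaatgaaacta
Myc far downstream peak, chr15:63467036-63467185: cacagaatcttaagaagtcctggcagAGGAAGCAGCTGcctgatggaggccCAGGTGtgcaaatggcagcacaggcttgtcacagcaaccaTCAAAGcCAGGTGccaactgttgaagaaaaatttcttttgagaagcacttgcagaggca
Ccnd3 intron peak, chr17:47542196-47542345: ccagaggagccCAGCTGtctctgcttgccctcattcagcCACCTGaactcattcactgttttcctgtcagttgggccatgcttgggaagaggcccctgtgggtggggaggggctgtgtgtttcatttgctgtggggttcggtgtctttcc
Myb downstream peak, chr10:21100796-21100945: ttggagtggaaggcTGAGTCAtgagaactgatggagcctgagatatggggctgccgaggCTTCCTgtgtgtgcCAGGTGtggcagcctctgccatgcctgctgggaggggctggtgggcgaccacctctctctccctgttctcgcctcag
Myb upstream peak, chr10:21196716-21196865: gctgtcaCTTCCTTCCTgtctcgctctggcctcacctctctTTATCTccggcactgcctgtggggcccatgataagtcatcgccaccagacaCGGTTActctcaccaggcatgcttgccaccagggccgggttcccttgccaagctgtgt
Cdk4 promoter peak, chr10:127063356-127063505: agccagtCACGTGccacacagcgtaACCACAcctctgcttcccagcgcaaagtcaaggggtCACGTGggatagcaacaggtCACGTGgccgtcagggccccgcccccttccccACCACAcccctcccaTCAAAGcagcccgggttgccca

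Each replicate had a promoter peak at all 9 genes, shared in every case, against 61.7% of all protein-coding genes. The genes differed in how strong that peak was. The strongest promoter peak of Ccnd3 scored 134 in replicate 1 and 137 in replicate 2, ranks of 99.2% and 98.5%. That of Cdk4 scored 130 and 135, ranks of 98.4% and 97.98%. Over the 13484 genes with a shared promoter peak and a ranked peak in each list, 89.1% had a lower mean rank than Ccnd3 and 81.9% a lower one than Cdk4.

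The MYC family followed. Myc scored 117 and 121 (ranks of 95.03% and 94.3%) at a peak in its 5′ UTR, 13 bp from the nearest of its 6 coding TSSs, and Mycn scored 112 and 117 (93.6% and 93.3%). Both lay close to the median of all such genes, 94.3%. Mycl, the family member known mainly from lung and neuroendocrine tissue and dendritic cells, scored 106 and 97 (91.7% and 87.8%). Myb scored 98 and 113 (88.6% and 92.3%), and Cdk6, the kinase partner known for its role in early thymocytes and blood progenitors, scored 99 and 99 (89.0% and 88.4%).

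Ccnd2 scored 84 and 108 (81.4% and 91.1%), the widest spread of the 9. Ccnd1, the D-type cyclin known mainly from epithelial and mesenchymal cells, was lowest, at 65 and 60 (68.1% in each replicate), and only 14.4% of the genes with a shared promoter peak ranked lower. Each of the first 4 genes in this order (Ccnd3, Cdk4, Myc, Mycn) was separated from the next by a gap between the replicates' ranges. Myb, Mycl, Cdk6 and Ccnd2 overlapped each their neighbour, and Ccnd1 stood below all of them in both replicates. The D-type cyclins thus included both the first and the last of the 9 genes in each replicate, while the place of Ccnd2 differed between the replicates. The rank is that of a gene's best promoter peak, and the number of peaks to choose from differed. Ccnd3, with 15 coding TSSs, had 12 promoter peaks in replicate 1 and 15 in replicate 2. Cdk6, with 5, had 16 and 13, and its strongest lay in coding sequence, 3.05 kb from its first TSS. Of the shared peaks within 1000 bp of that TSS, the strongest ranked at 80.8% and 84.8%, below that of Ccnd2 in both replicates. Ccnd1, with 1 TSS, had 2 in each. At the first of the 2 Ccnd3 TSS clusters alone, the best peak ranked at 93.9% and 93.6%, below those of Cdk4 and Myc.

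**Figure D1:**
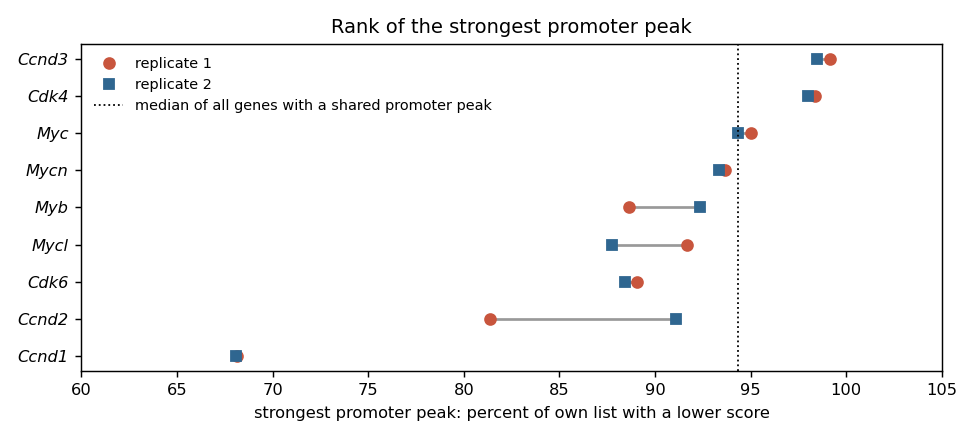
Rank of each gene's strongest promoter peak within its own list (x axis, percent of peaks in the list with a lower score, starting at 60), for replicate 1 (circles) and replicate 2 (squares), with a grey line joining the replicates. The dotted line is the median over all genes with a shared promoter peak, 94.3%; Ccnd3 and Cdk4 lie above it in both replicates and Ccnd1 lies at 68.1% in both.

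Cdk4 was the extreme case of a gene read at its promoter alone. Its territory, the sequence nearer to its TSSs than to those of any other coding gene, was 5.21 kb, and neither replicate had a distal peak in it. Replicate 1 had 3 promoter peaks and replicate 2 had 3, of which 1 was shared. That peak, centred 103 bp upstream of the first TSS, held the letters CACGTG in 3 places, all visible in the sequence above, with RUNX letters in 2 places and TCF/LEF letters in 1. CACGTG was present in 5.66% of all 25224 shared promoter peaks, and in 4 of the 47 shared promoter peaks of the 9 genes (8.51%). Of these 4, 2 lay at Cdk6 and overlap each other. Cdk4 is a known MYC target gene. A match of letters does not show that a factor was bound.

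Distal peaks shared by the replicates were found at 8 of the 9 genes, against 65.0% of all protein-coding genes, 102 peaks in all. The median over the 9 genes was 12 distal shared peaks, and over all genes it was 1. Replicate 1 had 39 distal peaks at Ccnd3 and replicate 2 had 47, with 20 shared. At Myb the counts were 45 and 25, with 22 shared. The ranges of Ccnd3 and Myb overlapped, and both genes had more than any of the other 7 in each replicate.

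Ccnd2 had 23 and 22 distal peaks with 18 shared, Ccnd1 had 18 and 20 with 14 shared, and Cdk6 had 13 and 17 with 12 shared. These 3 genes kept that order without overlap of their ranges. The MYC family had fewer within 100 kb: Myc had 10 and 7 with 5 shared, Mycl had 8 and 9 with 7 shared, and Mycn had 7 and 6 with 4 shared. Myc and Mycl overlapped, and Mycn lay below Mycl. Of all protein-coding genes, 98.7% had fewer distal shared peaks than Myb, 98.2% fewer than Ccnd3 and 97.5% fewer than Ccnd2. The share was 95.6% for Ccnd1 and 94.0% for Cdk6, and it was lower for Mycl (85.5%), Myc (77.4%) and Mycn (71.5%). These counts depend on which start sites can take a peak: with start sites of all biotypes, noncoding genes included, Ccnd3 had 20 distal shared peaks, Ccnd1 11, Cdk6 10, Ccnd2 8 and Myb 3, and Myc had 0.

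**Figure D2:**
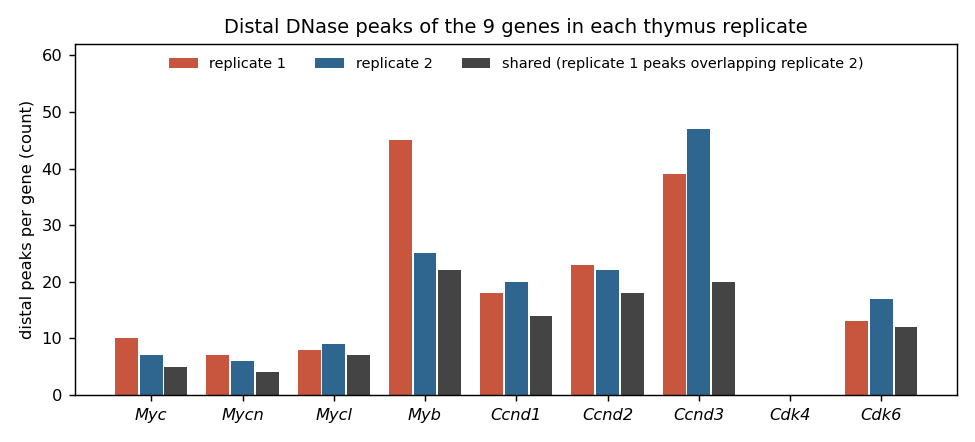
Number of distal peaks assigned to each gene (y axis, count) in replicate 1, in replicate 2 and shared by both. Ccnd3 and Myb carry the most in both replicates, the replicate counts of Myb are far apart at 45 and 25, and Cdk4 has none.

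The length of sequence searched differed between the genes and changed the order. Mycl had a territory of 27.9 kb and held 25.1 distal shared peaks per 100 kb. Ccnd3 (19.9 per 100 kb in 101 kb), Myb (17.2 in 128 kb), Ccnd2 (14.8 in 122 kb) and Ccnd1 (12.6 in 111 kb) came next. Cdk6, with 203 kb, held 5.92 per 100 kb, Myc, with 202 kb, held 2.47, and Mycn, with 201 kb, held 1.99. Of all gene territories, 97.5% were less dense than that of Mycl and 47.7% less dense than that of Myc. The density of Mycl rests in part on 3 shared peaks between 7 and 8 kb upstream that overlap each other, and with overlapping peaks merged Mycl had 5 distal shared peaks instead of 7, or 17.9 per 100 kb, below the 19.9 of Ccnd3. Counting all distal peaks of each list, shared or not, Ccnd3 was also above Mycl, at 42.7 ± 5.62 against 30.4 ± 2.53 per 100 kb (SD, n = 2).

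Ccnd3 had the strongest distal peaks. Its annotated TSSs fall into 2 clusters 88.4 kb apart, and both were open in each replicate: the second cluster, with 8 shared promoter peaks, held the peak ranked at 99.2% and 98.5%, and the best of 2 shared promoter peaks at the first cluster ranked at 93.9% and 93.6%. Between 2 and 40 kb downstream of the first TSS, replicate 1 had 32 peaks and replicate 2 had 33, with 17 shared. From 40 kb to 87 kb there were 3 and 3, with 1 shared. The open sites between the TSS clusters were thus gathered at the end near the first cluster.

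The peak shown above, centred 37.2 kb from the first Ccnd3 TSS (37.0 kb from the nearest) in an intron, scored 132 and 142, ranks of 98.8% and 99.6%. It overlapped in rank with the gene's best promoter peak. The next strongest lay 26.5 kb from the nearest TSS and scored 129 and 135, and the third lay 2.91 kb from it and scored 134 and 129. In all, 5 of the 20 distal shared peaks of Ccnd3 ranked above 95% in both replicates, where 0.960% of all distal shared peaks did, and 10 ranked above 80% in both, where 15.4% did. Over the 8 genes with distal shared peaks, 24 of 102 (23.5%) ranked above 80% in both replicates, and without Ccnd3 14 of 82 (17.1%) did. None of the other genes had a distal shared peak above 95% in both.

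Fewer of the Ccnd3 distal peaks were shared than of all peaks, promoter peaks included: 51.3% in replicate 1 and 42.6% in replicate 2, against 67.3% and 74.8%. Of the 19 found only in replicate 1, 12 overlapped a hotspot of replicate 2, a hotspot being an enriched region that was deposited as a separate list. Of the 27 found only in replicate 2, 4 overlapped a replicate 1 hotspot. The highest peak found in 1 replicate only ranked at 90.6% in replicate 1, while the median rank of such peaks was 43.7% in replicate 1 and 31.6% in replicate 2.

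Myb had open sites on both sides, 15 shared peaks upstream and 7 downstream. Upstream of it lies Hbs1l, and the stretch between them is known to hold enhancers of Myb in blood cells. The strongest distal shared peak lay on the other side, 60.03 kb downstream in an exon of the annotated gene Gm48189, and scored 119 and 116 (95.5% and 93.1%). It outranked the promoter peak of Myb in both replicates, without overlap of their ranges. The strongest upstream peak, 25.9 kb away within introns of Gm33619 and Gm40608, scored 108 and 102 (92.4% and 89.4%). The upstream peak shown above, 35.8 kb away in intergenic sequence, scored 91 and 96 (85.3% and 87.4%) and held ETS letters in 2 places, GATA letters and MYB letters.

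Most of the excess of Myb peaks in replicate 1 lay in 1 stretch. Between 20 and 40 kb upstream, replicate 1 had 24 peaks and replicate 2 had 7. Of the replicate 1 peaks, 8 were shared and 16 were not, and the median rank of the 16 was 7.57%. Hotspots covered 8.36 kb of this stretch in replicate 1 and 2.52 kb in replicate 2, and the widest measured 3018 bp and 607 bp. The 2 strongest of the shared peaks there ranked above 80% in both replicates. In the next stretch, 40 to 67 kb upstream, the counts were 8 and 7, with 6 shared.

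At the other genes the layout of the distal peaks differed from gene to gene. The strongest of Ccnd2 lay 93.8 kb upstream in intergenic sequence and scored 108 and 98 (92.4% and 88.1%). It was part of a group between 85 and 95 kb upstream with 7 peaks in each replicate, 6 of them shared, close to the 100 kb limit of assignment. The second lay 3.14 kb downstream in an exon of Ccnd2 and scored 102 and 100. The third lay 25.98 kb upstream, within 9330179D12Rik, and scored 96 and 101. Ccnd2 is the D-type cyclin known for induction by mitogens and cytokines in lymphocytes.

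Ccnd1 had its strongest distal shared peak 2.18 kb downstream of its TSS in an intron, at 99 and 97 (89.0% and 87.8%), above its promoter peak in both replicates. With a promoter window of 2500 bp this peak would not count as distal, and Ccnd1 had 10 distal shared peaks. The second, 89.5 kb upstream, scored 98 and 75, and the third, 3.64 kb upstream, scored 85 and 83. The distal peaks of Ccnd1 thus included sites both close to the TSS and near the limit of assignment.

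Cdk6 had 9 of its 12 distal shared peaks within the gene. Between 10 and 25 kb from its first TSS, replicate 1 had 7 peaks and replicate 2 had 8, with all 7 of replicate 1 shared. Its strongest lay 40.1 kb upstream and scored 95 and 74 (87.3% and 77.5%). The next, both in introns of Cdk6, lay 76.7 kb downstream of the nearest TSS (81 and 70) and 39.5 kb downstream (68 and 53).

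Mycn, the MYC family gene known mainly from embryonic and neural tissue, had 3 of its 4 distal shared peaks inside its own short gene body. They lay in an intron (101 and 90), in coding sequence (98 and 86) and in an intron (74 and 64). Those of Mycl lay mostly upstream. Its strongest was 10.4 kb upstream at 104 and 99, followed by peaks 11.9 kb upstream (49 and 75) and 7.48 kb upstream (66 and 47), so the first stood well above the others in both replicates.

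**Figure D3:**
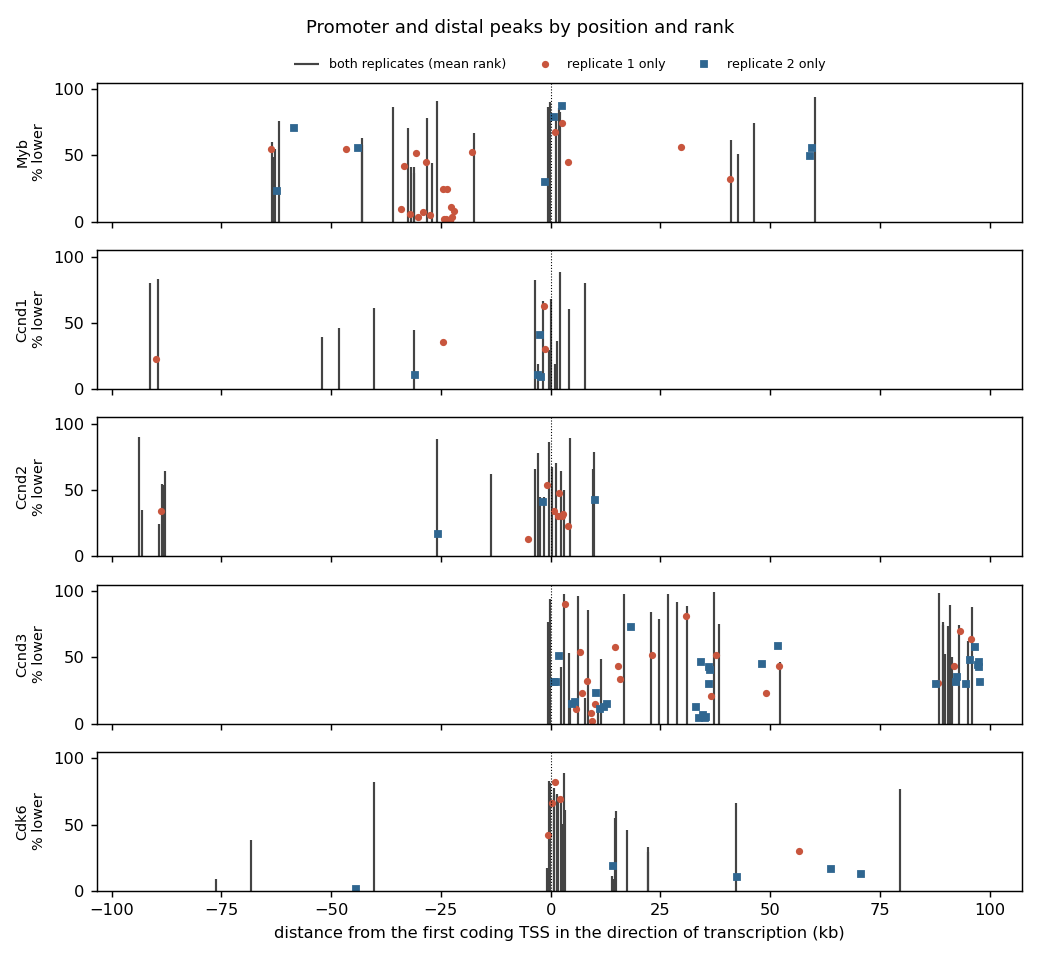
Peaks of the 5 genes with the most distal peaks by distance from the first coding TSS in the direction of transcription (x axis, kb) and by rank in percent (y axis). Lines are peaks shared by both replicates at their mean rank, circles are peaks of replicate 1 only and squares of replicate 2 only. In Ccnd3, 9 of the 17 shared lines between 2 and 40 kb rank above 80% in both replicates, and low-ranked circles fill the stretch 20 to 40 kb upstream of Myb.

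Myc itself had few distal peaks within 100 kb. The strongest was the upstream peak shown above, 1.88 kb from the first TSS in intergenic sequence, which scored 124 and 118 (96.9% and 93.6%). In replicate 1 it overlapped the same hotspot, of 3198 bp, as the strongest promoter peak, so it counts as distal only by the 1000 bp limit. It ranked higher than the promoter peak in replicate 1 and lower in replicate 2. Of the letters searched it held only CCAAT, on the minus strand. The other distal shared peaks of Myc ranked lower, the next at 59.1% and 62.3% (46.7 kb from the first TSS, scores of 55 and 53) and the third at 45.2% and 67.3% (52.6 kb, 43 and 59).

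Further out, the 1.8 Mb downstream of the first Myc TSS held 130 peaks in replicate 1 and 114 in replicate 2, with 83 shared. Of the peaks there, 63.8% in replicate 1 and 74.6% in replicate 2 were in both lists (69.2% ± 7.58, SD, n = 2), close to the 67.3% and 74.8% of all peaks. The density was 4.61 shared peaks per 100 kb, against 1.72 in the same length upstream of Myc, where 31 peaks were shared, and 3.81 over the main chromosomes. Of 1502 consecutive windows of this length along the genome, 66.5% held fewer shared peaks, and the median window held 48. The stretch is gene-poor: Myc and Gsdmc were the only coding genes with a TSS in it.

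The 83 shared peaks comprised 6 promoter peaks and 77 distal ones. By midpoint, 53 lay in introns, 22 between genes and 8 in exons, noncoding genes included. The nearest coding TSS belonged to Myc for 43 of them and to Gsdmc, a gasdermin gene at the far end, for 40, and 39 lay more than 1 Mb from Myc. Pvt1, the noncoding gene 52.6 to 393 kb downstream, held 12.

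The peaks were spread unevenly. The bin of 0 to 100 kb held 9 shared peaks, 6 of them promoter peaks of Myc. The bins of 100 to 200 kb, 700 to 800 kb and 1600 to 1700 kb held 8 each. Those of 400 to 500 kb, 1300 to 1400 kb and 1400 to 1500 kb were close behind, with 7 each. Neither list had a peak between those centred at 516 and 713 kb, a gap of 197 kb. By strength, 13 of the 83 ranked above 80% in both replicates, of which 11 were distal and more than 100 kb away, among 77 distal peaks. That is close to the 15.4% of all distal shared peaks.

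The strongest distal one lay 184 kb downstream in an intron of Pvt1 and scored 117 and 112 (95.03% and 92.1%). Its sequence, given above, held GATA, E-box and TCF/LEF letters. Flanking peaks in Pvt1 at 180 kb (100 and 101) and 196 kb (97 and 94) ranked between 86.7% and 89.4%. The second strongest lay 1482 kb downstream in an intron of Gm41335 and scored 110 and 115 (93.0% and 92.9%). It held ETS letters beside an E-box, 2 further E-boxes and TCF/LEF letters.

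Others among the 10 strongest lay at 1667 kb (100 and 86), 472 kb (90 and 87), 745 kb (92 and 84) and 1616 kb (92 and 82). A Notch-responsive Myc enhancer of T cells has been described more than 1 Mb downstream of the mouse gene. It was not looked up here, and no peak was matched to it. Within the bin of 1200 to 1300 kb, picked after the peaks were seen, the strongest shared peak lay 1271 kb downstream and scored 95 and 77 (87.3% and 79.2%). That peak was not among the 10 strongest, and it too was not matched to a described enhancer.

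**Figure D4:**
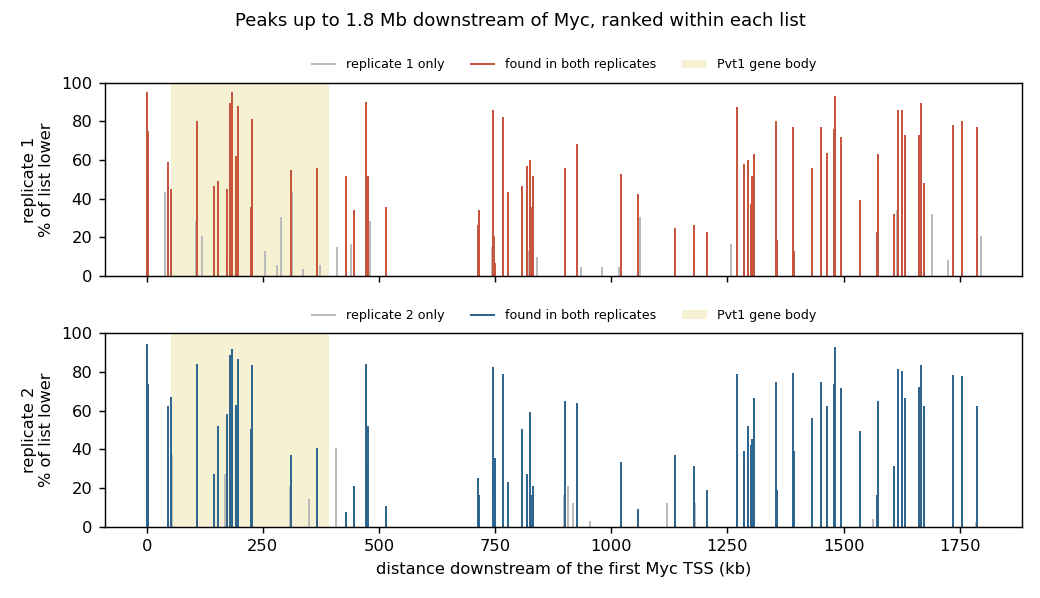
Peaks in the 1.8 Mb downstream of the first Myc TSS (x axis, distance in kb), replicate 1 above and replicate 2 below, with height giving the rank within the list (y axis, percent of peaks with a lower score). Coloured lines were found in both replicates and grey lines in 1 only; the shaded span is Pvt1. The groups of tall lines near 184, 745, 1482 and 1667 kb recur in both panels, and both are bare between 516 and 713 kb.

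Peaks found in 1 replicate only were weak here. Replicate 1 had 47, with a median rank of 14.8%, and replicate 2 had 29 without a counterpart, with a median rank of 14.5%. The shared peaks had median ranks of 56.1% and 56.5%. Hotspots covered 1.98% of the stretch in replicate 1 and 2.22% in replicate 2.

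The letters held by the distal peaks were counted over the 102 peaks assigned to the 9 genes and the 77 downstream of Myc, 176 different peaks in all. ETS letters were the most frequent, in 73 of 176 (41.5%), against 31.6% of all 78719 distal shared peaks. The share was 39.2% in the assigned peaks and 44.2% downstream of Myc. In each replicate's own list of distal peaks it was 35.8% and 35.9% (35.9% ± 0.0673, SD, n = 2) for these genes, against 29.4% and 30.6% of all distal peaks of those lists. In the central 100 bp of the shared peaks it was 33.5% against 23.9%. By gene, ETS letters were found in 10 of 20 peaks of Ccnd3, 11 of 22 of Myb, 7 of 12 of Cdk6 and 2 of 14 of Ccnd1. They were found in 6 of 18 of Ccnd2, 2 of 7 of Mycl, 1 of 4 of Mycn and 1 of 5 of Myc. Some of these peaks, at Myb and at Cdk6, overlap each other and were counted separately. ETS factors such as ETS1 are abundant in T cells, and their part in these shares was not tested.

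RUNX letters went the other way, in 31 of 176 (17.6%) against 21.1% of all distal shared peaks. In the lists of single replicates the shares were 17.2% and 18.75% (18.0% ± 1.09, SD, n = 2), against 19.9% and 19.7% of all distal peaks. The difference in replicate 2 is smaller than the spread between the replicates. By gene, RUNX letters were found in 1 of 20 distal shared peaks of Ccnd3, 1 of 18 of Ccnd2, 2 of 14 of Ccnd1 and 0 of 5 of Myc. At Myb they were in 4 of 22, at Cdk6 in 3 of 12, at Mycn in 1 of 4 and at Mycl in 3 of 7. The last 3 genes were above the share of all distal shared peaks, and the 3 peaks at Mycl overlap each other. Downstream of Myc the share was 20.8%. E-boxes were found in 36.4% against 34.0%, and in replicate 1 alone the shares were equal to within rounding, at 30.8% and 30.9%.

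Downstream of Myc, GATA letters were found in 8 of 77 peaks (10.4%) against 6.23%, and CTCF letters in 2 of 77 (2.60%) against 6.72%. The MYC E-box, RBPJ and E2F letters were found in 0 of 77, a count that allows a share of up to 3.90%, against 3.78%, 3.14% and 0.340% of all distal shared peaks. For these 3 sets of letters a difference was therefore not detectable with 77 peaks. In the peaks assigned to the genes, GATA letters were found in 6 of 102 (5.88%), below the share of all distal shared peaks, and CTCF letters in 4 (3.92%). The MYC E-box was also found in 6 of these 102 (5.88%), 3 of them at Ccnd1 and 2 at Ccnd2. The RBPJ letters were found in 4 of 102 (3.92%, against 3.14%), 3 of them at Cdk6, where 2 of the peaks overlap and share their sequence.

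AP-1 letters were found in 14 of the 176 peaks (7.95%) against 5.51%. For the remaining letters the shares were TCF/LEF 14.2% against 13.5%, MYB 15.3% against 15.8%, STAT 4.55% against 4.42% and the CCAAT box 13.1% against 14.0%. GC content, which changes how often such letters occur, had a median of 53.3% in the assigned peaks, 47.3% downstream of Myc and 50.7% in all distal shared peaks. Its part in the differences was not tested. In the promoter peaks of the 9 genes, ETS letters were found in 10 of 47 (21.3%, against 20.4% of all shared promoter peaks). E-boxes were found in 4 (8.51% against 21.0%), the CCAAT box in 5 (10.6% against 20.4%) and RUNX letters in 1 (2.13% against 7.63%). Most of the 47 belonged to Cdk6 (12), Ccnd3 (10) and Myc (8), and some at Cdk6 overlap each other, so they are not 47 separate promoters.

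**Figure D5:**
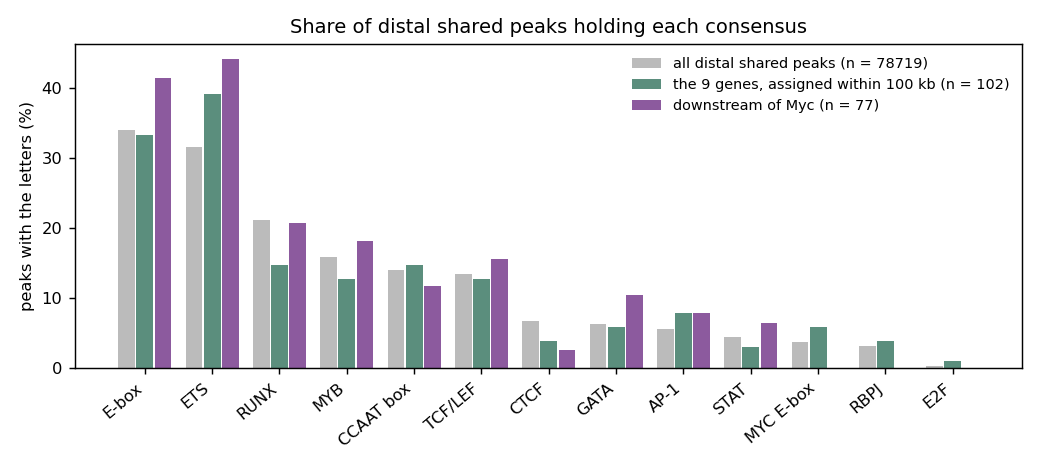
Share of distal shared peaks that hold each set of letters on either strand (y axis, percent), for all distal shared peaks, for those assigned to the 9 genes and for those downstream of Myc; no replicate error is drawn. ETS letters are more frequent in both sets of the 9 genes (39.2% and 44.2%) than in all distal shared peaks (31.6%), and RUNX letters are less frequent in the assigned peaks (14.7% against 21.1%).

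The genes that act with these 9 were also open at their promoters. All 40 looked up, in 6 groups, had a promoter peak in both replicates, where 61.7% of all genes did, and their median number of distal shared peaks was 4, between 0 and 24. The MYC network partners, Max among them, had a median of 8 over 9 genes, led by Mxd4, a MAX-binding repressor, with 24. The 11 pocket protein and E2F genes had a median of 5, led by E2f2 with 15, and the 6 MYC targets a median of 4, led by Odc1, the ornithine decarboxylase gene, with 16.

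The 7 CDK inhibitor genes had a median of 3, led by Cdkn1b, which encodes p27, with 11. The 5 G1/S cyclin and kinase genes also had a median of 3, led by Ccne1 with 10. The MYB relatives Mybl1 and Mybl2 had 2 each, against 22 at Myb. Of the 40 genes, 5 had no distal shared peak. Myb and Mxd4 thus had similar counts, and Ccnd3, Ccnd2, Ccnd1 and Cdk6 each had more distal shared peaks than the median of any of the 6 groups. Single partner genes nevertheless reached such counts. Mxd4 (24), Max (17), Odc1 (16), and Mxi1, Mnt and E2f2 (15 each) all had more than Ccnd1 (14) and Cdk6 (12). The remaining partner genes had 11 or fewer, below Cdk6. High counts were therefore not particular to the genes described here. The counts of the partner genes were not divided by the length of sequence searched.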

How the data were processed

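The assay was DNase-seq on thymus of newborn mice, with 2 replicates in 1 group. For each replicate the authors deposited peaks with a score per peak (column 7) and hotspots with a −log10 of a q-value, between 1.30 and a cap of 100, on mm10 per the labels. The aligner, read totals, callers and thresholds used are not named by the labels or headers; each replicate has its own lists, per the labels. Every peak and hotspot on the main chromosomes lay within the GRCm38 chromosome lengths, and start sites came from GENCODE M21 (54361 coding TSSs).

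From these, peaks were ranked within each list, paired by an overlap of at least 1 bp, assigned to genes and searched for letters on both strands, with Python 3.11.15, numpy 2.4.6, pandas 2.3.3 and matplotlib 3.10.9. The steps were tested on simulated data. All 9 genes are described, each with its strongest promoter peak and its 3 strongest distal shared peaks by summed rank. Downstream of Myc the 10 strongest are used, and partner genes are named where they lead their group. The genes, lists and letters were chosen with earlier results of these data known. The alternatives were another overlap, equal numbers of peaks, the stronger 50% of peaks, hotspots, each replicate alone, other windows and start sites, and the central 100 bp.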

Additional observations from a re-analysis of the deposited data

How the results depend on the processing

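All 9 genes kept a promoter peak in both replicates, or in the replicate used, under every alternative run. The 102 distal shared peaks became 63 with the stronger 50% of peaks, 62 with start sites of all biotypes (Myb 3, Ccnd2 8 and Myc 0, since noncoding genes then take their peaks) and 153 to 163 with 1 replicate left out. With a promoter window of 2500 bp they became 86, with Ccnd1 at 10 instead of 14, Mycn at 2 instead of 4 and Myc at 4 instead of 5. The 83 shared peaks downstream of Myc became 41 with the stronger 50% and 114 to 130 with 1 replicate left out. The share in both lists, 69.2%, became 82.0% with the stronger 50%. The RUNX share, 17.6%, became 19.1% with a reciprocal overlap of 50%, 19.6% with the stronger 50%, 17.2% to 18.75% with 1 replicate left out and 12.5% in the central 100 bp, where all distal shared peaks had 16.1%. Of 99 alternatives for the distal counts of single genes 13 moved by over 1.5 times, and of 84 for the shares of the other letters 36 moved beyond 1 SD of the replicates. Removing peaks whose score was written with a decimal point (92 and 82 shared) and merging overlapping peaks (96 and 82) were chosen after seeing the data. No paired analysis was possible because there is 1 group. Depth is unknown, so a site missing from a list was not detected by that list's caller, which does not show closed chromatin.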
